A study of Mus musculus with 2 samples.

Results

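The variable segments of the T cell receptor were described in single-cell 5′ RNA libraries from mouse optic nerve. The set holds every gene row whose symbol starts with Trav (alpha chain) or Trbv (beta chain), which gave 163 of the 32285 rows, 128 Trav and 35 Trbv. There were 2 libraries with 1 per treatment, both from optic nerves of 12-week Nf1-OPG mice, with the nerves of 10 mice pooled in each. The mice were treated with anti-PDCD1 or anti-TIGIT, antibodies against the inhibitory T cell receptors PD-1 and TIGIT. Animals of both libraries carried Nf1 flox/neo; GFAP-Cre, a model of optic pathway glioma with a germline neo allele of Nf1, and with Cre acting in neuroglial progenitors. No untreated library, and no library of a control genotype, was analysed here. Because each treatment is a single pool, no test between treatments was possible. All intervals are 95% and cover counting error only, not the spread between mice. Where a share is 0, the limit given is the share that 3 cells would make. The protocol text is not settled on the tissue: its label and collection step name optic nerve, but its sorting step speaks of suspensions from meningeal duras. Cells with oligodendrocyte markers numbered 2389 in the anti-PDCD1 and 1984 in the anti-TIGIT library.

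Each alpha-beta T cell builds its receptor in the thymus by joining a Trav segment to a J segment and a Trbv segment to a D and a J segment. The segment chosen sets most of the chain's variable domain, and the joint, with bases added or trimmed, forms CDR3, the loop that contacts the peptide most directly. Descendants of a cell keep its receptor, so the segments read from RNA give a coarse record of shared ancestry. A 5′ library reads into the segment itself. No receptor contigs were analysed here, so cells with the same pair of segments need not be of 1 clone.

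The segments on which the results turn are given as the last bases of their exons, from the GRCm38 genome (the + strand throughout). Capitals mark the germline start of CDR3, from the last in-frame cysteine codon, after which recombination adds the rest. The first 6 are beta segments on chromosome 6.
Trbv13-3 chr6:41130526-41130585: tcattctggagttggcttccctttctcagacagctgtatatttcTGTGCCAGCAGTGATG
Trbv3 chr6:41048769-41048828: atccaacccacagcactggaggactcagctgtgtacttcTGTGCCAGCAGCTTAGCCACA
Trbv13-1 chr6:41116409-41116468: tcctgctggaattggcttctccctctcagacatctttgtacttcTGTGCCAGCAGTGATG
Trbv19 chr6:41178989-41179048: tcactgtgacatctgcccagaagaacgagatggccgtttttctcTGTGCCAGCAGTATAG
Trbv14 chr6:41135557-41135616: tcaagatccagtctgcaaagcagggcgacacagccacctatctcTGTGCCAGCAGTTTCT
Trbv16 chr6:41152171-41152230: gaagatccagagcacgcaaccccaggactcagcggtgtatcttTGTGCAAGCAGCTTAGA
These 3 are alpha segments on chromosome 14, shown because they take part in the leading pairs described further on.
Trav6d-5 chr14:52795574-52795633: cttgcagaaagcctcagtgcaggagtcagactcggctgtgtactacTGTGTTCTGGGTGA
Trav7-1 chr14:52655269-52655328: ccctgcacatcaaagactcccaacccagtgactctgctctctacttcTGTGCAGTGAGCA
Trav8n-2 chr14:53346365-53346424: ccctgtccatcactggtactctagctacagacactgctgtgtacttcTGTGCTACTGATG

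The Trav locus of this reference holds near-copies of the same segments, marked D and N in their symbols, and these limited how finely alpha usage could be read. Trav7-3 and Trav7d-3 differ at 2 of 288 bases, shown in capitals over the whole segment exon.
Trav7-3 chr14:53443552-53443839: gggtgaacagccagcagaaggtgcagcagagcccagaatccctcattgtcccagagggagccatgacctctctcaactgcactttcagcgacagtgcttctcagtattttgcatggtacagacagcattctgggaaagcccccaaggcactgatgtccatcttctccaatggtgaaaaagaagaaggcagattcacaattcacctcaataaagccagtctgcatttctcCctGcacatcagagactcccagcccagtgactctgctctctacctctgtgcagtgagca
Trav7d-3 chr14:52744553-52744840: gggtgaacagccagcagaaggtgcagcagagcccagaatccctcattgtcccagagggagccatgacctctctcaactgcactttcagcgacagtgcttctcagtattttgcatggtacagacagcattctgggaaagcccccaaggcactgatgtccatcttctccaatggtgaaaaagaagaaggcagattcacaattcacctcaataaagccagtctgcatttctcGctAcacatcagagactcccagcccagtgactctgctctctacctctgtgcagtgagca
For each row, every stretch of 151 bases, the read length, was searched in the other rows. All 35 Trbv rows had only stretches of their own. Of the 128 Trav rows, 50 had only stretches of their own and 38 had none. Those 38 held 5.68% of the Trav UMIs (unique molecular identifiers, each counted as 1 RNA molecule). Trav7-3 and Trav7d-3 each had 45.6% of their stretches to themselves, and Trav14d-1 and Trav14n-1 are identical over 312 bases, so counts of these rows are uncertain between the copies.

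The annotation lists 130 of the members as functional V genes and 33 as pseudogenes, and the pseudogenes took 0.488% of the members' UMIs. Over both libraries 34 rows had no UMI and 80 had at least 50. The Trav rows summed to 17299 UMIs and the Trbv rows to 29179. Among members, 97.3% of UMIs in the anti-PDCD1 library and 97.0% in the anti-TIGIT library lay in T cells. Trav11 and Trav11d, the alpha segments of invariant NKT cells, were at 0 UMIs in both libraries. Almost none of their sequence is their own (0.518% and 0% of stretches), so a reading of 0 says little about those cells.

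After filtering, the anti-PDCD1 library held 13275 cells and the anti-TIGIT library 7495, with a median of 4453 and 4126 UMIs per cell. T cells were taken as cells with at least 2 summed UMIs of Cd3d, Cd3e and Cd3g and none of Trdc, and were split by raw UMIs. The CD8 gate (Cd8a or Cd8b1, the co-receptor of cytotoxic cells) held 1724 and 658 cells in the anti-PDCD1 and anti-TIGIT libraries. The Foxp3 gate (Foxp3 is the defining factor of regulatory T cells) held 388 and 93. The other CD4 gate (Cd4 without Foxp3) held 613 and 336. Markers of NK cells were nearly absent from the gates of the anti-PDCD1 library, with Ncr1 in 2, 1 and 0 cells. The libraries shared 163 barcodes, and of the 11 that were T cells in both, 0 had the same beta segment.

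Receptor segments were read in most gated T cells. Either a Trav or a Trbv segment, taken as the segment with the most UMIs, was assigned in 94.3% (93.1 to 95.3) of CD8 cells with anti-PDCD1 and 97.6% (96.1 to 98.6) with anti-TIGIT. The Foxp3 cells reached 93.0% and 90.3%, and the other CD4 cells 95.8% and 92.0%. Any Trbv UMI was seen in 92.5% and 93.8% of CD8 cells, against 2.09% and 0.504% of oligodendrocytes, which do not rearrange these genes and had deeper libraries (median 6827 and 6282 UMIs, against 3966 and 3204 in CD8 cells). Foxp3 cells had less Trbv RNA than CD8 cells in both libraries. Their summed Trbv level was 661 CPM (UMIs per 1000000 of the cells' total, 629 to 695) in the anti-PDCD1 library and 892 CPM (804 to 987) with anti-TIGIT, against 1236 and 1292 CPM in CD8 cells. Trav RNA did not follow, at 741 and 695 CPM in Foxp3 cells and 584 and 593 in CD8 cells. Thinned to 1000 UMIs per cell, a Trbv UMI was kept in 49.5% and 57.6% of Foxp3 cells and 68.7% and 70.5% of CD8 cells.

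The beta segment that set Foxp3 cells apart was Trbv13-3. Among Foxp3 cells with a beta segment it was carried by 81 of 303 in the anti-PDCD1 library, 26.7% (21.8 to 32.1), and by 17 of 70 in the anti-TIGIT library, 24.3% (14.8 to 36.0). Other CD4 cells carried it in 11.9% and 10.5%, and CD8 cells in 5.97% and 6.67%. It was the most used beta segment of Foxp3 cells in both libraries, and the order Foxp3, other CD4, CD8 was the same in both. Foxp3 cells exceeded other CD4 cells by 14.8 points (9.23 to 20.6) and 13.8 points (4.33 to 25.4). They exceeded CD8 cells by 20.8 points (15.9 to 26.1) and 17.6 points (8.78 to 29.0). A part of this lay in pairs carried by many cells. Leaving out the leading pair of each Foxp3 gate lowered the share among cells with both chains from 25.1% to 18.3% with anti-PDCD1 and from 27.7% to 17.1% with anti-TIGIT. Counting each distinct Trav and Trbv pair once gave 16.9% and 21.1% in Foxp3 cells against 9.73% and 8.57% in other CD4 cells, with differences of 7.17 points (0.193 to 14.9) and 12.5 points (0.934 to 28.2).

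**Figure D1:**
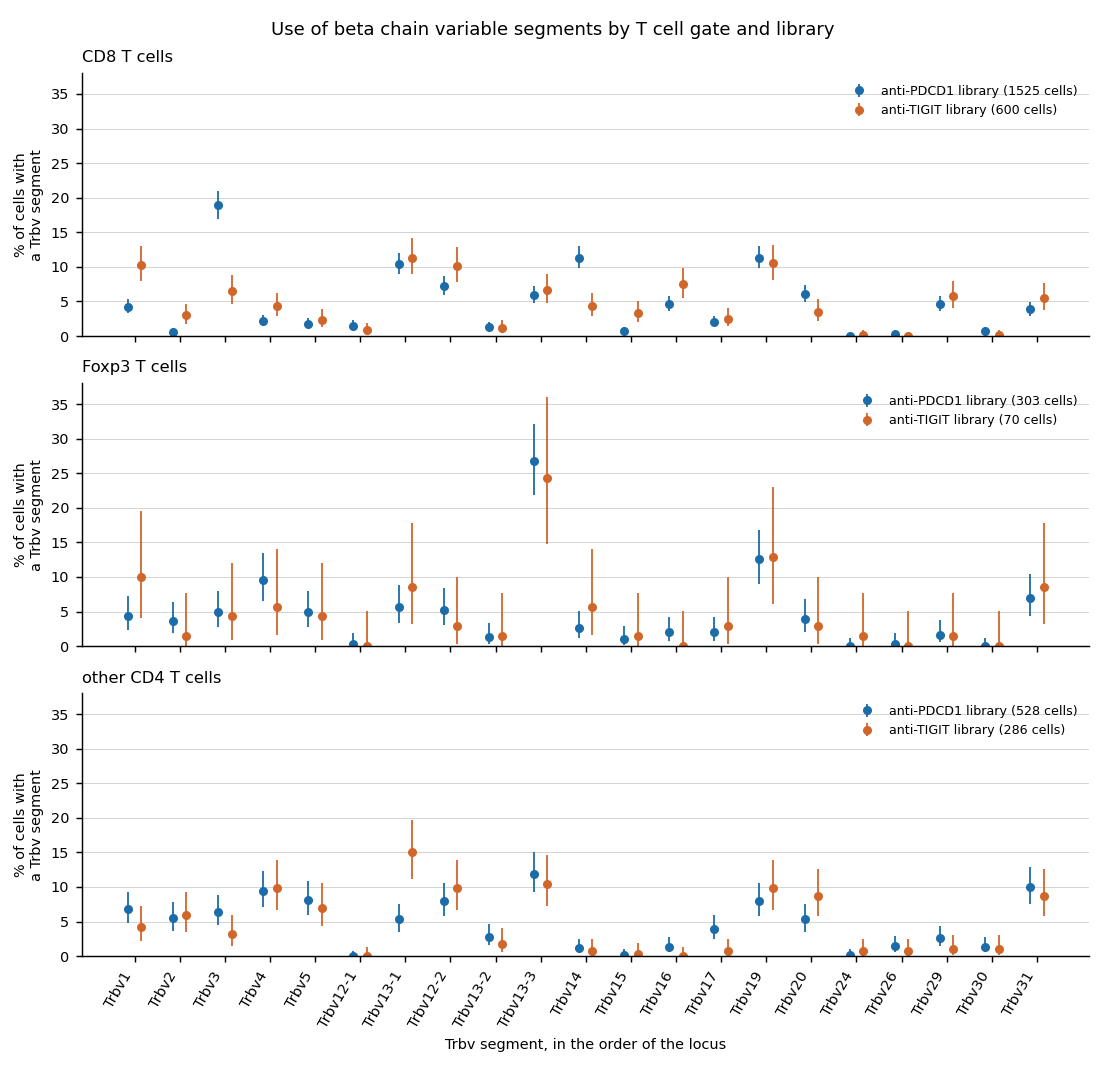
Share of cells, in percent of cells with an assigned beta segment, for the Trbv segments of each T cell gate in each library, with exact 95% intervals from counting. Trbv13-3 stands at 26.7% and 24.3% of Foxp3 cells, and Trbv3 at 18.9% of CD8 cells of the anti-PDCD1 library against 6.5% of the anti-TIGIT library.

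CD8 and other CD4 cells used different beta segments, and 8 of the 20 segments at 1% or more differed beyond counting error in the same direction in both libraries. These 8 are given after their values were seen. Trbv3, Trbv14, Trbv16 and Trbv29 were higher in CD8 cells, and Trbv2, Trbv4, Trbv5 and Trbv13-3 in other CD4 cells. Trbv14 was carried by 11.3% of CD8 cells in the anti-PDCD1 library against 1.14% of other CD4 cells, and by 4.33% against 0.699% in the anti-TIGIT library. Trbv16 was carried by 4.59% and 7.50% of CD8 cells, against 1.33% of other CD4 cells in the anti-PDCD1 library and 0 of 286 in the anti-TIGIT library, which allows up to 1.05%. On the CD4 side, Trbv5 stood at 8.14% and 6.99% of other CD4 cells against 1.77% and 2.33% of CD8 cells. With each distinct pair counted once, only Trbv14, Trbv29 and Trbv5 of the 8 kept intervals off 0 in both libraries. Trbv14 was then 6.30 and 5.95 points higher in CD8 cells, Trbv29 was 4.11 and 4.82 points higher, and the CD8 share of Trbv5 fell below that of other CD4 cells by 5.11 and 5.40 points. Trbv19 was used at a like share by the 3 gates of both libraries, from 7.95% to 12.9%.

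Between the treatments, the beta usage of CD8 cells differed most for Trbv3. It was carried by 288 of 1525 cells of the anti-PDCD1 library, 18.9% (16.9 to 20.9), and by 39 of 600 cells of the anti-TIGIT library, 6.5% (4.66 to 8.78), a difference of 12.4 points (9.44 to 15). Trbv14 was 11.3% against 4.33%, a difference of 7.01 points (4.56 to 9.18), and Trbv20 6.10% against 3.50%. In the other direction, Trbv1 was 4.26% against 10.3%, and its share fell by 6.07 points (interval -8.91 to -3.61). Trbv12-2 (7.21% against 10.2%) and Trbv16 (4.59% against 7.50%) were also lower in the anti-PDCD1 library. With each distinct pair counted once, 4 of these 6 segments differed in the same direction by less, and the others turned. This count has limits wherever it is used here. Clones that share a pair count once, which holds down segments carried by many cells. Pairs seen in 1 cell, 217 of 364 and 171 of 244 in CD8 cells, weigh as much as repeated pairs. How many of those come from stray RNA was not tested. Trbv3 then stood at 9.07% (6.32 to 12.5) of 364 pairs against 6.15% (3.48 to 9.94) of 244 pairs, and Trbv14 at 8.52% against 7.38%. Trbv1 stood at 6.59% against 8.2% and Trbv16 at 4.67% against 4.92%. The direction turned for Trbv20, at 5.22% against 6.15%, and for Trbv12-2, at 9.34% against 7.79%. Wherever a direction is said to turn, no interval is given for the turned gap. Such a turn is a change of sign only, and whether it exceeds counting error was not tested.

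Among other CD4 cells the largest beta difference lay in Trbv13-1. It was carried by 5.30% (3.55 to 7.57) of other CD4 cells with anti-PDCD1 and 15% (11.1 to 19.7) with anti-TIGIT. Trbv17 (3.98% against 0.699%) and Trbv3 (6.44% against 3.15%) were higher in the anti-PDCD1 library. Much of Trbv17 lay in 1 pair. Leaving out Trav4-4-dv10/Trbv17 lowered it from 4.35% to 1.40% of paired other CD4 cells with anti-PDCD1. By distinct pairs the directions were kept, with Trbv13-1 at 6.19% against 12.1%, Trbv17 at 2.65% against 0.714% and Trbv3 at 6.19% against 2.14%. In Foxp3 cells none of the 6 Trbv segments with the largest differences left counting error, with only 70 cells in the anti-TIGIT library. The spread of usage is summed up by the effective number of segments, the number of equally used segments that would give the same evenness. For Trbv it was 10.7 and 13.8 in CD8 cells of the anti-PDCD1 and anti-TIGIT libraries, 8.63 and 9.90 in Foxp3 cells, and 13.9 and 11.6 in other CD4 cells.

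Alpha usage was spread over more segments. The effective number of Trav segments was 29.3 and 27.4 in CD8 cells, 28.0 and 28.6 in Foxp3 cells, and 35.4 and 33.7 in other CD4 cells. In CD8 cells of the anti-PDCD1 library the leading segment was Trav7-3, carried by 117 of 1158 cells, 10.1% (8.43 to 12.0), against 16 of 468, 3.42% (1.97 to 5.49), in the anti-TIGIT library. Trav16n led in the anti-TIGIT library with 60 of 468 cells, 12.8% (9.93 to 16.2), against 3.97% (2.92 to 5.26). Trav14d-1 (5.79% against 1.5%) and Trav7d-3 (4.66% against 2.35%) were higher in the anti-PDCD1 library, and Trav9-4 (1.81% against 4.91%) and Trav16 (0.173% against 2.99%) were lower. By distinct pairs, Trav7-3 made up 4.12% and 4.92% and Trav16n 3.30% and 5.33%, so both gaps narrowed and the gap for Trav7-3 turned. The D copies as a group were carried by 32.0% and 23.7% of CD8 cells and the N copies by 11.0% and 20.3%, with the caution on shared sequence given above. The gap of the N copies lay largely in Trav16n, carried by 60 of the 95 N-copy cells of the anti-TIGIT library. Trav16n has 91.4% of its stretches to itself.

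Trav3-3 was the most used alpha segment of Foxp3 and of other CD4 cells in the anti-PDCD1 library, while Trav9-4 and Trav16n led these gates in the anti-TIGIT library. Trav3-3 was carried by 8.77% (5.76 to 12.7) and 6.56% (1.82 to 15.9) of Foxp3 cells, and by 6.32% and 5.33% of other CD4 cells, and by 3.63% and 4.49% of CD8 cells. Trav7-1 was carried by 20 of 285 Foxp3 cells in the anti-PDCD1 library, 7.02% (4.34 to 10.6), and by 0 of 61 in the anti-TIGIT library, which allows up to 4.92%. Trav9-4 showed the reverse, 0.351% against 9.84% (3.70 to 20.2). Trav8n-2 was carried by more Foxp3 than other CD4 cells in both libraries, with 6.32% against 1.41% and 8.2% against 0.444%, differences of 4.91 points (2.11 to 8.44) and 7.75 points (2.68 to 17.4). These cells were few pairs: all 10 paired Foxp3 cells with Trav8n-2 in the anti-PDCD1 library had Trbv4, and 3 in the anti-TIGIT library had Trbv14. By distinct pairs Trav8n-2 made up 1 of 142 in Foxp3 and 3 of 226 in other CD4 cells of the anti-PDCD1 library, which turns the direction, and 2 of 38 and 1 of 140 in the anti-TIGIT library. CD8 and other CD4 cells were compared over 48 alpha segments at 1% or more, of which 15 went opposite ways in the libraries. Beyond counting error in both, Trav4-3 and Trav4-4-dv10 were higher in other CD4 cells, and Trav19 and Trav6d-5 in CD8 cells. Much of the CD8 side lay in single pairs. Leaving out Trav6d-5/Trbv16 lowered Trav6d-5 from 3.99% to 0.487% of paired CD8 cells with anti-TIGIT. Of 48 paired Trav19 cells with anti-PDCD1, 28 had Trbv14. No count of these segments by distinct pairs is given. Trav4-4-dv10 stood at 5.85% and 6.22% of other CD4 cells against 1.21% and 1.92% of CD8 cells. Segments marked dv, which can also be joined into a delta chain, were used by 8.55% and 7.91% of CD8 cells and by 17.3% and 13.8% of other CD4 cells.

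**Figure D2:**
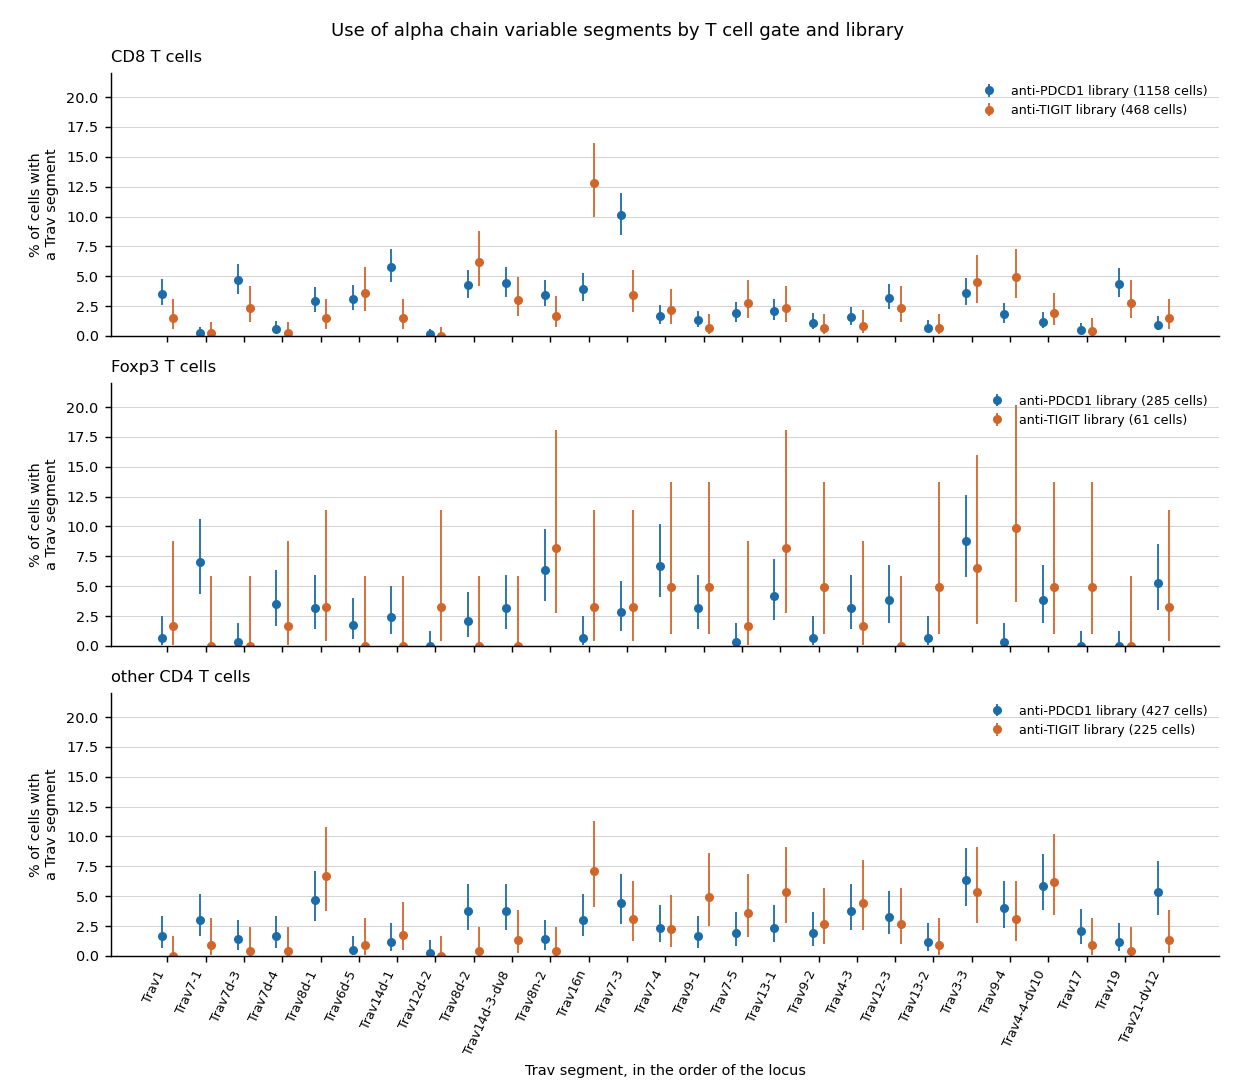
Share of cells, in percent of cells with an assigned alpha segment, for the leading Trav segments of each gate in each library, with exact 95% intervals from counting. Trav7-3 leads CD8 cells of the anti-PDCD1 library at 10.1%, and Trav16n those of the anti-TIGIT library at 12.8%.

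Summed RNA was compared as the log2 ratio of CPM + 5 between the libraries, over rows with at least 50 UMIs, and a row was called past 2-fold. In CD8 cells 6 of 57 tested members were higher in the anti-PDCD1 library and 6 were lower, against 4.1% higher and 0.774% lower of all 10588 genes tested. In Foxp3 cells 5 of 26 members were higher and 5 lower, against 4.02% and 2.17%. In other CD4 cells 8 of 35 were higher and 4 lower, against 4.32% and 0.697%. The higher members in CD8 cells were Trbv3 (log2 ratio 1.68), Trbv14 (1.05), Trbv20 (1.07), Trav1 (1.01), Trav2 (1.60) and Trav14d-1 (1.5). The lower ones were Trbv1 (-1.14), Trbv15 (-1.63), Trbv16 (-1.12), Trav6d-5 (-1.07), Trav16n (-1.01) and Trav9-4 (-1.32). The median log2 ratio of the members was -0.10, -0.16 and 0.27 in CD8, Foxp3 and other CD4 cells, beside 0.00, -0.13 and 0.04 over all genes. The receptor's constant and signalling genes were compared in the same way. Members went both ways in each gate, which gave these genes no single direction to follow. Of 13 such genes, among them Trac and Trbc1 (constant regions), Cd247 (the zeta chain) and Zap70 (the receptor's kinase), 0 passed 2-fold in any gate, with medians of 0.08, -0.09 and 0.01.

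Both chains could be assigned in 1058 and 426 CD8 cells, which carried 364 and 244 different pairs. In CD8 cells, repeated pairs took a larger share of the anti-PDCD1 library. There, 43 pairs were carried by at least 5 cells and held 52.7% of the paired CD8 cells, against 14 pairs and 26.3% in the anti-TIGIT library, where fewer cells were paired. The effective number of pairs, defined as for segments, was 105 and 157 in CD8 cells. Repeated pairs held 15% and 12.8% of Foxp3 cells and 23.6% and 16.8% of other CD4 cells. The cut of 5 cells is easier to reach where more cells are paired, 227 against 47 and 368 against 202 here. In these 2 gates the effective number of pairs was higher in the anti-PDCD1 library, the reverse of CD8 cells. It was 86.7 against 54 in Foxp3 cells and 188 against 143 in other CD4 cells. Of the 43 CD8 pairs of the anti-PDCD1 library, 21 were seen in at least 1 cell of the anti-TIGIT library, and of the 14 the other way, 8 were seen. Those with at least 5 cells in both libraries were Trav19/Trbv29 and Trav6d-5/Trbv16. Among CD8 cells of the anti-PDCD1 library with a Pdcd1 UMI, 59.7% of 819 lay in repeated pairs, against 28.9% of 239 without. In the anti-TIGIT library the same shares were 28.3% of 138 and 25.3% of 288. The cut of 5 cells was set over the whole gate, of which cells with Pdcd1 are the larger part in the anti-PDCD1 library only. By the effective number of pairs, cells with a Pdcd1 UMI were less diverse in both libraries. It was 76.8 with and 235 without a Pdcd1 UMI in the anti-PDCD1 library, and 51.1 and 133 in the anti-TIGIT library. Pdcd1 encodes PD-1, the target of the first antibody, and cells with a Pdcd1 UMI were deeper on the whole (median 4170 against 3430 UMIs among CD8 cells of the anti-PDCD1 library), whose part in this was not tested.

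**Figure D3:**
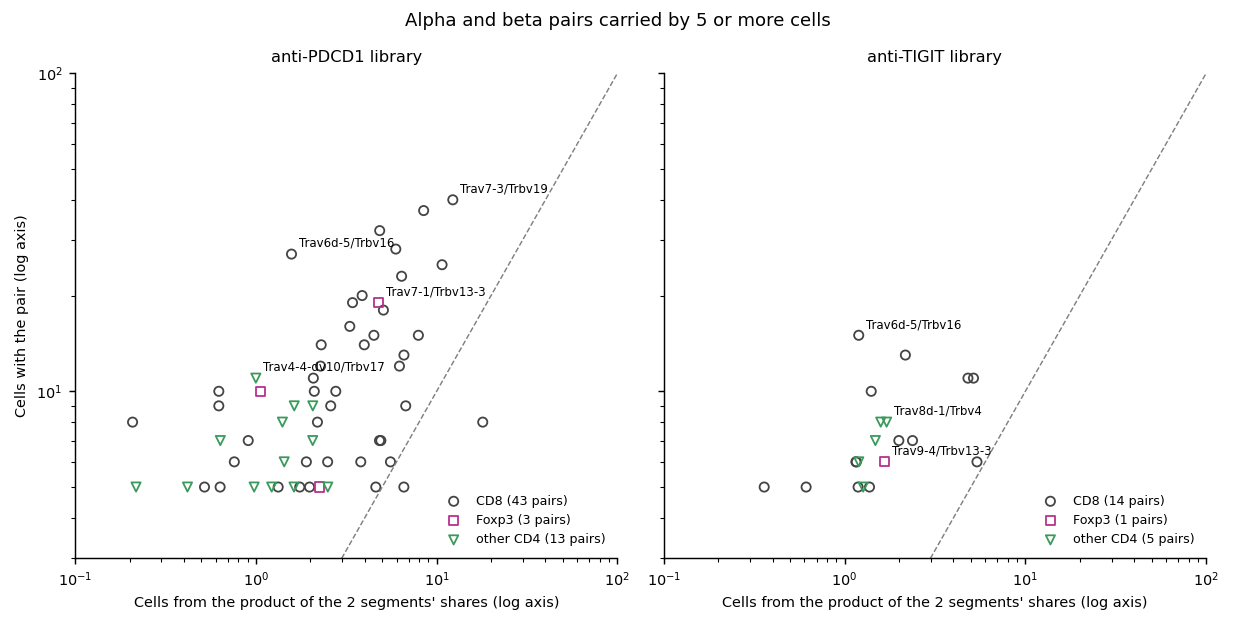
Number of cells carrying each Trav and Trbv pair of at least 5 cells against the number given by the product of its segments' shares, on log axes, for each gate and library. The dashed line marks equal numbers, and points above it are pairs seen more often than their segments alone would give, such as Trav6d-5/Trbv16 with 27 cells against 1.57 in the anti-PDCD1 library. Pairs were picked by their number of cells, which by itself favours points above the line.

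The leading CD8 pairs differed between the libraries. In the anti-PDCD1 library they were Trav7-3/Trbv19 with 40 of 1058 cells, 3.78% (2.71 to 5.11), Trav14d-3-dv8/Trbv3 with 37, and Trav7d-3/Trbv13-1 with 32. The product of the segments' shares would give 12.3, 8.48 and 4.84 cells. Wherever this product is given, the pairs were picked for their many cells, which by itself favours an excess over it. In the anti-TIGIT library these pairs were carried by 2, 0 and 0 of 426 cells. Its own leading pairs were Trav6d-5/Trbv16 with 15 cells, 3.52% (1.98 to 5.74), Trav8d-2/Trbv3 with 13 and, tied, Trav16n/Trbv1 and Trav16n/Trbv12-2 with 11 each, against 1.2, 2.17, 4.81 and 5.16 from the segments' shares. Trbv3 of the anti-PDCD1 library was not carried by a single pair. Its 183 paired cells had 33 alpha partners, and the first, Trav14d-3-dv8, took 20.2%.

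Trav6d-5/Trbv16, which led in the anti-TIGIT library, was among the pairs repeated in both. It was carried by 27 of 1058 CD8 cells, 2.55% (1.69 to 3.69), in the anti-PDCD1 library and by 15 of 426, 3.52%, in the anti-TIGIT library. It was carried by 0 of 227 Foxp3 and 0 of 368 other CD4 cells in the anti-PDCD1 library (which allows up to 1.32% and 0.815%), and by 0 of 47 and 0 of 202 in the anti-TIGIT library (up to 6.38% and 1.49%). Of the paired cells with Trav6d-5, 79.4% and 88.2% had Trbv16 as their partner, and of those with Trbv16, 55.1% and 50% had Trav6d-5. The germline ends of both segments are printed above. Since both libraries pool 10 mice and the bases of CDR3 beyond the germline part were not read, whether the cells share a full receptor was not tested.

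The first pair of Foxp3 cells held Trbv13-3 in both libraries, with a different alpha segment in each, and the pairs that came next held other beta segments. Trav7-1/Trbv13-3 was carried by 19 of 227 cells of the anti-PDCD1 library, 8.37% (5.11 to 12.8), against 4.77 from the segments' shares, and by every paired Foxp3 cell with Trav7-1. It also occurred in 8 of 368 other CD4 cells and in 0 of 1058 CD8 cells (which allows up to 0.284%). In the anti-TIGIT library it occurred in 2 of 202 other CD4 cells and in 0 of 47 Foxp3 cells (up to 6.38%). Trav9-4/Trbv13-3 was carried by 6 of 47 cells of the anti-TIGIT library, 12.8% (4.83 to 25.7), against 1.66, and was followed by Trav8n-2/Trbv14 with 3 cells and Trav3-3/Trbv4 with 2. Trav9-4/Trbv13-3 also occurred in 3 other CD4 cells and 1 CD8 cell of that library. In the anti-PDCD1 library 1 Foxp3 cell and 4 other CD4 cells carried it. Trav8n-2/Trbv4 was carried by 10 Foxp3 cells of the anti-PDCD1 library, and all 10 also had UMIs of Trav3-3, against 12.0% of the other paired cells. Trav3-3/Trbv19 came next with 5 cells. A T cell can carry rearranged alpha genes on both chromosomes. In other CD4 cells the leading pairs were Trav4-4-dv10/Trbv17 with 11 of 368 cells in the anti-PDCD1 library, and Trav8d-1/Trbv4 with 8 and Trav9-1/Trbv13-1 with 8 of 202 in the anti-TIGIT library. Trav8d-1/Trbv4 and Trav4-4-dv10/Trbv4 were repeated in other CD4 cells of both libraries, the first with 9 and 8 cells and the second with 5 and 7.

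The pools held cells of both sexes, so a part of each could be split into cells of female and of male mice. Cells were set apart by UMIs of Xist, made from the inactive X chromosome of females, or of Y-linked genes. The gated CD8 cells of the anti-PDCD1 library included 475 with Xist and 401 with Y-linked UMIs only, and those of the anti-TIGIT library 74 and 233. The remaining 848 of 1724 and 351 of 658 had neither or both and were not classed. Of 34 repeated CD8 pairs in the anti-PDCD1 library with at least 3 Xist or Y-linked cells, 10 had Xist cells only, 6 had Y-linked cells only and 18 had both. A single UMI was enough to class a cell, and some of the 18 had only 1 cell of the other kind. Trav8d-1/Trbv19 had 1 Xist and 12 Y-linked cells, and Trav7-3/Trbv13-1 had 14 and 1. Whether such single cells came from a mouse of the other sex was not tested. Trav7-3/Trbv19 had 23 and 3, Trav14d-3-dv8/Trbv3 had 2 and 22, and Trav7d-3/Trbv13-1 had 0 and 16. Trav6d-5/Trbv16 had 2 and 15 in the anti-PDCD1 library and 0 and 7 in the anti-TIGIT library. Segment usage itself differed between these cells. Trbv3 was carried by 32.3% (28.0 to 36.9) of 439 Xist cells and 10.1% (7.18 to 13.7) of 356 Y-linked cells in CD8 cells of the anti-PDCD1 library, a difference of 22.2 points (16.7 to 27.5). Trbv14 (3.64% against 10.1%), Trbv16 (2.28% against 8.71%) and Trbv20 (3.19% against 10.4%) were lower in Xist cells. Trbv14 was more frequent over all CD8 cells of that library than in either class, so unclassed cells carried it most. Of the 28 cells with Trav19/Trbv14, 2 were Xist cells, 0 were Y-linked cells and 26 were not classed. In CD8 cells of the anti-TIGIT library, Trbv3 was carried by 9.09% (3.41 to 18.7) of 66 Xist cells and 7.34% (4.25 to 11.6) of 218 Y-linked cells, so the libraries differed beyond counting error in Xist cells, and their intervals overlapped in Y-linked cells. The balance of the sexes was close between the libraries in oligodendrocytes, with 616 Xist and 891 Y-linked cells against 577 and 766, and in macrophages and microglia, with 649 and 617 against 428 and 431. It differed in B cells, with 113 and 183 against 17 and 149, as it did in CD8 cells. The same held for Foxp3 cells, with 43 and 131 against 1 and 47, and for other CD4 cells, with 130 and 174 against 18 and 138. With 1 pool per treatment, the parts of the treatment and of single mice in these shares cannot be told apart.

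**Figure D4:**
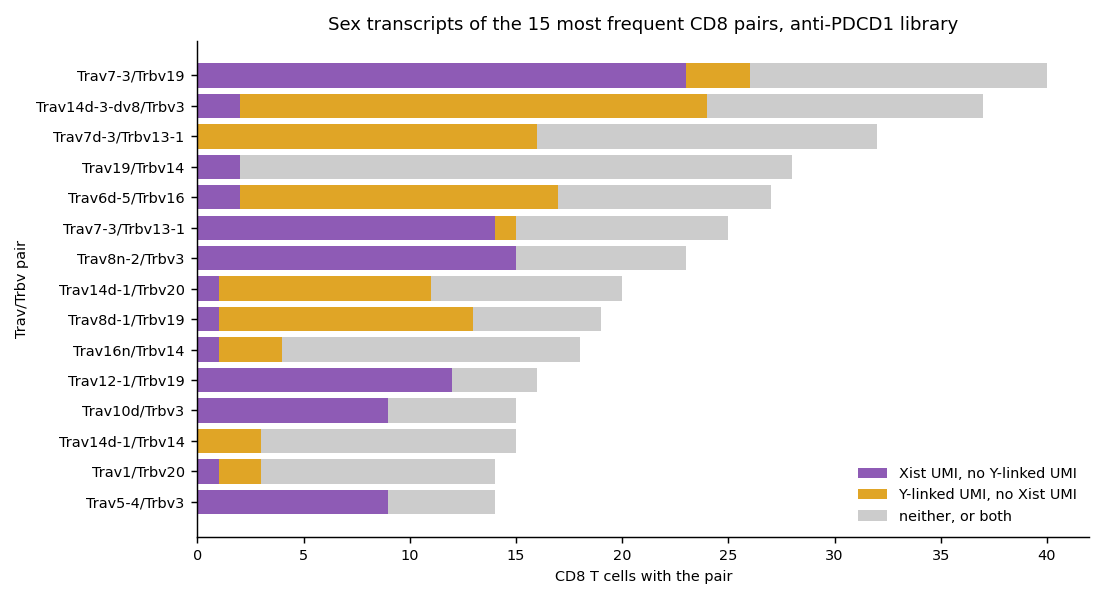
Cells with Xist UMIs and cells with Y-linked UMIs for the 15 leading CD8 pairs of the anti-PDCD1 library, as numbers of cells, with cells that had neither or both in grey. Trav7-3/Trbv19 has 23 Xist and 3 Y-linked cells, and Trav7d-3/Trbv13-1 has 0 and 16.

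Cells of a leading pair were compared with the other paired cells of the same gate and library for a fixed list of T cell state genes. Trav6d-5/Trbv16 cells had more Pdcd1 RNA than other CD8 cells in both libraries, 1394 against 649 CPM (log2 ratio 1.10, 0.87 to 1.33) and 812 against 196 CPM (2.05, 1.69 to 2.39). Pdcd1 was seen in 26 of 27 and 15 of 15 of them, against 0.712% and 0.101% of oligodendrocytes. Among all paired CD8 cells it was seen in 819 of 1058 and 138 of 426. Cells of the pair had a median of 3975 and 5759 UMIs, against 3966 and 3204 in the whole CD8 gate. Tox, a factor of chronically stimulated T cells, was also higher in both (log2 ratios 0.93 and 1.89), as was Tigit (0.83 and 1.2). Other genes parted between the libraries. Xcl1, a chemokine gene of CD8 cells, had a log2 ratio of -0.56 in the anti-PDCD1 library and 1.61 in the anti-TIGIT library. Ccl5, another such chemokine gene, had log2 ratios of 0.28 and -2.79. These genes were less clean in oligodendrocytes than Pdcd1. Tox was seen in 9.38% and 10.9% of them, Ccl5 in 19.0% and 5.04%, Tigit in 1.59% and 0.302%, and Xcl1 in 1.76% and 0.857%.

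Pairs of the same gate differed in these genes. Trav8d-2/Trbv3 of the anti-TIGIT library had 0 Pdcd1 UMIs in 13 cells, which allows up to 104 CPM (3 UMIs), against 235 CPM in the other CD8 cells. All 13 had Gzmk, a granzyme gene, at 1038 against 301 CPM (log2 ratio 1.78). Trav14d-3-dv8/Trbv3 of the anti-PDCD1 library, which shares its beta segment, had little Gzmk, 40.4 against 262 CPM (-2.70), and little Ccl5, 1271 against 7918 CPM (-2.64). Its cells were deeper, with a median of 7828 UMIs against 4324. In Foxp3 cells of the anti-PDCD1 library, Trav7-1/Trbv13-3 had more Il2ra (the high-affinity interleukin-2 receptor chain), 656 against 297 CPM (1.14), and less Ikzf2 (-0.50), a factor of thymus-derived regulatory cells. Ikzf2 was also seen in 27.1% of that library's oligodendrocytes.

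**Figure D5:**
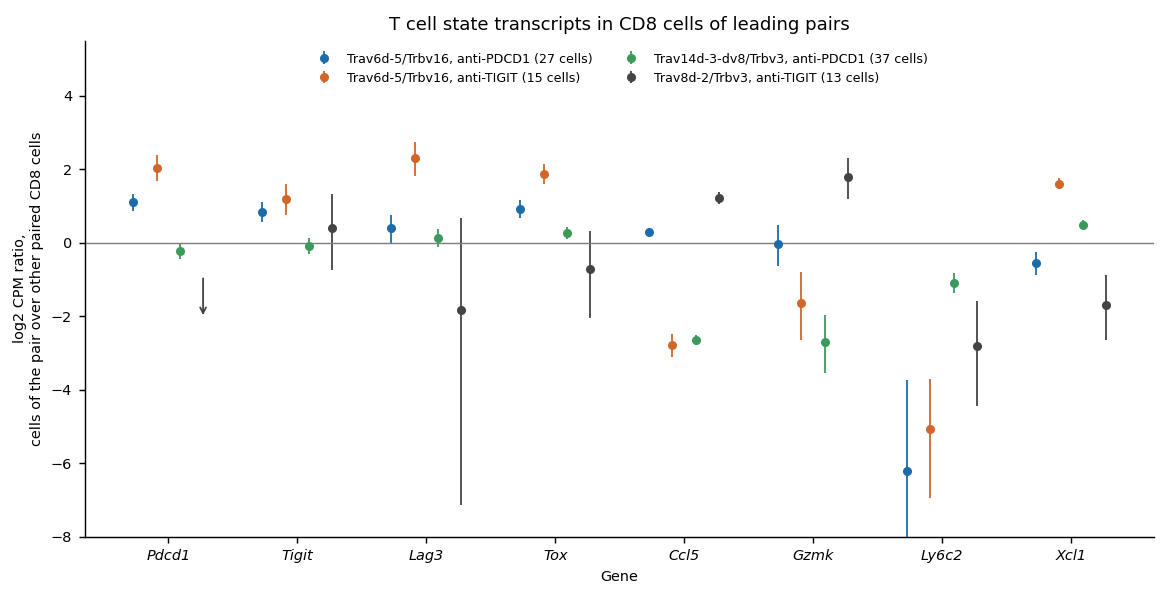
Log2 ratio of CPM, cells of a leading CD8 pair over the other paired CD8 cells of the same library, for T cell state genes, with 95% intervals from counting (clipped at -8). The arrow starts at the upper bound of a pair with no UMI. Pdcd1 stands at 1.10 and 2.05 for Trav6d-5/Trbv16 in the anti-PDCD1 and anti-TIGIT libraries.

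Many cells held UMIs of more than 1 segment of a chain. A second Trbv segment was seen in 32.1% of CD8 cells with an assigned beta segment in the anti-PDCD1 library, and a second Trav segment in 35.2% of those with an alpha segment. Trbv12-2 was the most frequent second beta segment, behind another in 12.5% and 7.61% of CD8 cells, with a median of 1 UMI. Trbv13-2 stood behind another segment in 5.65% and 5.90% of CD8 cells but was the highest in only 20 and 7 cells. Trav1, the alpha segment of MAIT cells, was carried by 41 and 7 CD8 cells, and of the 41, Zbtb16, a transcription factor of MAIT and NKT cells, was seen in 1. Rag1, Rag2, Dntt and Ptcra, used while receptors are being built, summed to 1 UMI over the gates.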

How the data were processed

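Optic nerve cells of Nf1-OPG mice were profiled with 10x 5′ chemistry, 1 library per treatment. The deposited values are raw UMI counts per gene and barcode, made by the authors with Cell Ranger 8.0.0 (anti-PDCD1) and 8.0.1 (anti-TIGIT) per the file headers. The submitters' processing notes give the genome as mm10; they list Seurat 5.0.3 and R 4.1.1 too, and nothing made with those was used here. The libraries summed to 85031565 and 40733655 UMIs over 13997 and 7915 barcodes. Per the labels' protocols, live cells were sorted with 7-AAD, from suspensions that the sorting step attributes to meningeal duras although the tissue label is optic nerve.

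Cells needed 200 genes or more and no more than 10% mitochondrial UMIs, and 576 and 155 doublets called by Scrublet (scanpy 1.11.5) were removed. A cell was given the segment of each chain with the most UMIs, at least 1. Ties were left unassigned. Shares have Clopper-Pearson intervals, differences of shares Newcombe intervals, CPM Poisson intervals, and ratios conditional binomial intervals (scipy 1.17.1). PCR duplicates are collapsed by UMI, and cells of a pool are not replicates, so no p-values were computed. Beta assignment in CD8 cells and the fold calls were run on simulated data. The stray RNA set there was far below the second segments seen in CD8 cells. That run therefore cannot show how well assignment holds at the real level. Trav assignment and pairs were not simulated. Coordinates, gene types and sequences come from the GRCm38 genome with GENCODE annotation, and all 163 members matched by gene ID.

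Named segments are the 5 most used per chain, gate and library, the 3 largest differences each way, the 3 leading pairs per gate, and fixed segments and lists. Exceptions were chosen after their values were seen, among them Trav6d-5/Trbv16 in the anti-PDCD1 library, the segments that differed between gates, and the second segments. Members and lists were chosen with earlier results of these data known.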

Additional observations from a re-analysis of the deposited data

Results flagged for a closer look

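T cells outside the 3 gates also held receptor segments, above the level in oligodendrocytes (2.09% of cells with a Trbv UMI in the anti-PDCD1 library and 0.504% in the anti-TIGIT library). Of T cells in no gate, which had no UMI of the gating genes or a mix of them, 79.6% had a Trbv UMI in the anti-PDCD1 library and 83.1% in the anti-TIGIT library. Among T cells with a Trdc UMI, the constant region of the delta chain, 62.9% of 35 cells and 47.6% of 21 cells had a Trbv UMI.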

How the results depend on the processing

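Over 302 recomputed values, 222 stayed within their interval or within 1.5 times the count, and 80 did not. Each is a share or a count and has no sign, but by distinct pairs the gaps between libraries turned for CD8 Trav7-3, Trbv20 and Trbv12-2. The cause of each move was not tested unless fewer cells or rows were used. Doublets kept in, stricter cell filters, cells with Trdc kept and barcodes of both libraries left out moved no share. No paired analysis was possible because the labels carry no replicate numbers and each treatment has 1 library. Settings that left fewer than 20 cells or no tested row gave no value, which was the case for Xist cells of the small anti-TIGIT gates. The distinct pairs, the merging by shared stretch and the leaving out of shared barcodes were chosen after seeing the data. Shares of segments rest on few UMIs per cell, and shares in the 93 Foxp3 cells of the anti-TIGIT library are the least precise.

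In the order CD8, Foxp3, other CD4, the share with a segment assigned was 86.6%, 83.5% and 84.3% (anti-PDCD1) and 88.3%, 73.1% and 78.9% (anti-TIGIT) when the highest segment needed 2 UMIs, and 76.9%, 71.4% and 73.8%, then 80.1%, 72.8% and 76.6%, when cells were thinned to 1000 UMIs. Gating at 2 UMIs gave 96.1% in CD8 cells and 97.4% in other CD4 cells of the anti-PDCD1 library, and 95.1% in other CD4 cells of the anti-TIGIT library. Among Xist cells the share was 95.6% in CD8 and 93.8% in other CD4 cells (anti-PDCD1) and 95.9% in CD8 cells (anti-TIGIT). Among Y-linked cells it was 97.7% in Foxp3 cells (anti-PDCD1).

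Usage in the anti-PDCD1 library moved most with sex. In Xist cells, CD8 Trav7-3 was 19.9%, CD8 Trbv3 32.3%, CD8 Trav7-3/Trbv19 8.01%, Foxp3 Trav3-3 0 of 33 cells, Foxp3 Trbv13-3 14.3%, Foxp3 Trav7-1/Trbv13-3 3.70%, other CD4 Trbv13-3 8.65% and other CD4 Trav4-4-dv10/Trbv17 1.27%. CD8 Trav6d-5/Trbv16 was 0 of 49 Xist cells in the anti-TIGIT library. In Y-linked cells the values were 2.14% for CD8 Trav7-3, 10.1% for CD8 Trbv3, 1.18% for Trav7-3/Trbv19, 13.1% for Foxp3 Trav3-3, 16.3% for other CD4 Trbv13-3 and 0.943% for Trav4-4-dv10/Trbv17, and 6.47% for CD8 Trav16n in the anti-TIGIT library.

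Merging rows by family number gave 18.5% for the family of CD8 Trav7-3, 33.7% and 20.1% for that of Trbv13-3 in Foxp3 and other CD4 cells, and 9.64% for that of Trav3-3 in other CD4 cells (anti-PDCD1). In the anti-TIGIT library it gave 19.3% and 27.4% for that of Trbv13-1 in CD8 and other CD4 cells, and 21.5% for that of Trav9-4 in Foxp3 cells. Merging only rows that share a stretch gave 14.7% for CD8 Trav7-3. By summed UMIs, CD8 Trav16n was 8.51% (anti-TIGIT). By distinct pairs, CD8 Trav7-3 was 4.12%, CD8 Trbv3 9.07%, Foxp3 Trav3-3 5.63%, Foxp3 Trbv13-3 16.9% and other CD4 Trav3-3 3.54% (anti-PDCD1), and CD8 Trav16n 5.33%, CD8 Trbv13-1 7.79% and Foxp3 Trav9-4 2.63% (anti-TIGIT).

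Counts of members past 2-fold were 6 higher and 6 lower in CD8, 5 and 5 in Foxp3, and 8 and 4 in other CD4 cells. A pseudocount of 1 gave 12 higher and 12 lower in CD8 cells. A pseudocount of 20 gave 1 and 1 in CD8 cells, 1 higher in Foxp3 cells, and 1 and 1 in other CD4 cells. Thinning gave 3 and 3 in CD8, 0 and 1 in Foxp3, and 1 higher in other CD4 cells. At least 10 UMIs gave 20 higher and 8 lower in Foxp3 cells and 13 lower in other CD4 cells, and at least 200 UMIs gave 0 and 0 in Foxp3 and 1 and 2 in other CD4 cells. Xist cells gave 2 and 1 in other CD4 cells. Y-linked cells gave 3 lower in CD8, 1 and 2 in Foxp3, and 3 and 2 in other CD4 cells. Centring on the median gene gave 5 higher in other CD4 cells, and keeping doublets 8 higher in Foxp3 cells.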
